A study of Mus musculus with 24 samples.

Results

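The effect of losing Abcb4 on the liver transcriptome was compared between 20 and 3 weeks, as the knockout over wild type ratio at the later week minus that at the earlier one. The comparison uses 12 of the 24 arrays of the series, which are the 6 arrays titled 20 weeks and the 6 titled 3 weeks. Each array was a 2-colour hybridisation of liver RNA from a male Abcb4 knockout mouse (FVB.129P2-Abcb4tm1Bor/J) and from a male wild type mouse (FVB/NJ), and the knockout RNA carried Cy5 on 3 arrays of each week and Cy3 on the other 3. The series describes 5 mice of each genotype per week and 1 dye swap without saying which arrays share mice, so mice are repeated on 1 or more arrays of each week and the p-values rest partly on technical spread. The week is that of the array title, since one label counts weeks from weaning and another gives 3 weeks for every array. No treatment is named for either genotype, and the allele is present in the whole animal.

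Abcb4 is the flippase of the bile canaliculus that hands phosphatidylcholine to bile, where the lipid shields the ducts from bile acids. Mice without it are a standard model of chronic cholangitis with bile duct proliferation and periportal fibrosis. The weeks compared may also span part of normal liver maturation, depending on whether the titles count from birth or from weaning. Around weaning the liver gives up fetal transcripts and takes on adult metabolism. After puberty the pulsed growth hormone secretion of male mice sets up a male pattern of cytochromes, steroid dehydrogenases and sulfotransferases. Each ratio is taken within an age, so a change of this ratio says how the genotypes differed at the 2 ages and not how either genotype changed by itself.

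Values are log ratios, treated as base 2 although the labels do not state the base, and positive values mean higher in the knockout. Abcb4 being taken as lower in the knockout set the sign; the opposite sign would exchange every rise and fall given here. Probes were named through an array layout recovered from the data, on which every gene name rests. Turned to one direction, arrays correlated with a median r of 0.46 within 20 weeks (0.06 to 0.77), 0.29 within 3 weeks (-0.05 to 0.65) and 0.20 between the weeks (-0.28 to 0.48). Between the weeks the median r was 0.33 for arrays of the same dye orientation and 0.14 for arrays of opposite orientation. Within 20 weeks these medians were 0.48 and 0.36, and within 3 weeks 0.34 and 0.29. Arrays 1 and 2 of 20 weeks, both with knockout RNA in Cy5, had the highest correlation of that week. Arrays 1 and 2 of 3 weeks both had wild type RNA in Cy5. Ratios carry no level of either genotype, so the tissue could not be checked against its markers, and signal over background was not analysed here.

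Of 20861 genes and features tested, 953 (4.57%) had a knockout effect at 20 weeks that differed from that at 3 weeks (limma, Benjamini-Hochberg adjusted p under 0.05). The difference was positive for 631 (3.02%) and negative for 322 (1.54%), against a median difference of 0.0008 over everything tested. Counts of calls in the gene groups below are to be set beside these 2 shares. Among the 953 were 834 named genes and 119 features with no gene or more than 1. The 6 arrays of 20 weeks did not overlap the 6 of 3 weeks in 467 (2.24%) of the 20861 items, called or not. Of these 467, 318 (1.52% of the 20861) were among the 953 called. Every one of the 953 differences had the same sign in both dye orientations. The calls were made on the 2 orientations together, so this is not a separate check. The dye-orientation term of the fit itself passed the test for 2409 items (11.55%). Fitted alone with 3 arrays a week, knockout RNA in Cy5 gave 275 calls and wild type RNA in Cy5 gave 2. The count depended on single arrays: it was 503 without array 3 of 3 weeks, 504 without array 1 of 20 weeks and 612 without array 2 of 20 weeks, and 433 calls remained whichever array was left out.

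Set against the test of each week on its own, the 953 fell into 4 main kinds. In 279 the knockout was lower at 3 weeks and not past the test at 20 weeks, and in 280 it was higher at 20 weeks and not past the test at 3 weeks. Another 161 were lower at 20 weeks alone and 105 were higher at 3 weeks alone. Opposite directions, with both weeks past the test, were found for 31 items (0.149% of those tested). The rest were called in the same direction at both weeks, 13 with the larger effect at 20 weeks and 8 with the larger effect at 3 weeks, or at neither week (76). The single weeks had 1687 higher (8.09%) and 1120 lower (5.37%) at 20 weeks, against 759 higher (3.64%) and 783 lower (3.75%) at 3 weeks. Single-week counts of the gene groups below are to be set beside these shares.

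**Figure D1:**
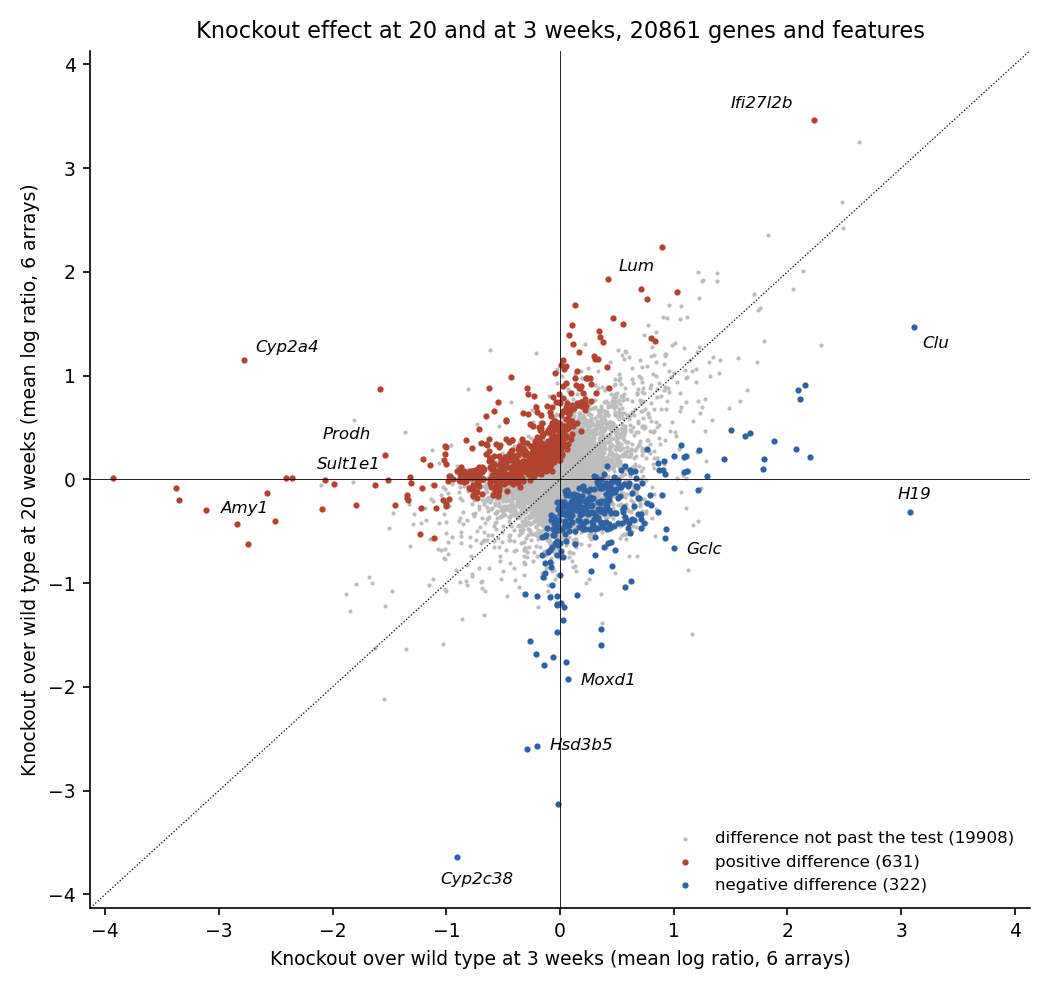
Each point is 1 gene or unnamed feature, with its mean log ratio of knockout over wild type at 3 weeks on the horizontal axis and at 20 weeks on the vertical axis; the dotted line marks equal effects. Red points are the 631 with a positive and blue points the 322 with a negative difference past the test, and most called points lie near one of the 2 zero lines rather than in the corners of opposite sign.

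The targeted gene itself did not pass the test of this difference. On these arrays the lowest, median and highest log ratios of Abcb4 were -1.83, -1.30 and -1.0 at 20 weeks, against -1.24, -0.78 and -0.65 at 3 weeks, below 0 on all 12 arrays and overlapping between the weeks. The difference was -0.48 ± 0.24, adjusted p = 0.301. Among its 40 measured chromosome neighbours, 0 were called in either direction by limma (3 at an unadjusted p under 0.05) and the median difference was -0.01.

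Among named genes whose weeks did not overlap, clone and predicted names aside, the largest change was that of Cyp2a4. It is a testosterone hydroxylase of the liver that is female-biased in mice. The lowest, median and highest log ratios of Cyp2a4 were 0.80, 1.04 and 1.57 at 20 weeks, against -4.11, -2.91 and -1.39 at 3 weeks. The knockout was thus below wild type on every array of 3 weeks and above it on every array of 20 weeks, and the difference was 3.92 ± 0.42, adjusted p = 3.27e-05. The probe may also bind its close relative Cyp2a5.

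Of the 26 named genes with opposite directions at the 2 weeks, the 10 with the largest differences were Cyp2a4, Gclc, Fmo1, Auh, Ces2a, Hgd, Slc47a1, Phgdh, Timm10 and Set. Auh, a mitochondrial hydratase of leucine breakdown, had log ratios of 0.38 to 0.86 (median 0.68) at 20 weeks, against -0.90 to -0.41 (median -0.57) at 3 weeks without overlap. Its difference was 1.24 ± 0.13, adjusted p = 3.27e-05. Fmo1, a flavin monooxygenase of drug metabolism, had 0.51 to 1.08 (median 0.74) at 20 weeks, against -1.48 to 0.46 (median -0.58) at 3 weeks (difference 1.30 ± 0.21, adjusted p = 0.00104). In Fmo1 a single array of 3 weeks lay above 0 and none of those at 20 weeks lay below it.

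Hgd, the homogentisate dioxygenase of tyrosine breakdown, averaged 0.39 ± 0.34 at 20 weeks and -0.63 ± 0.37 at 3 weeks (SD, n = 6 each), a difference of 1.02 ± 0.15, adjusted p = 0.000485. Slc47a1, a cation and proton exchanger of the canaliculus, averaged 0.33 ± 0.20 at 20 weeks and -0.64 ± 0.37 at 3 weeks, a difference of 0.97 ± 0.13, adjusted p = 0.000189. Timm10, a chaperone of protein import into mitochondria, averaged 0.38 ± 0.34 at 20 weeks and -0.48 ± 0.49 at 3 weeks (difference 0.86 ± 0.17, adjusted p = 0.00608). In all 3 the knockout was lower at 3 weeks and higher at 20 weeks, without overlap between the weeks.

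The reverse order, higher at 3 weeks and lower at 20 weeks, was seen for Gclc, Phgdh, Ces2a and Set. Gclc, the catalytic subunit of the first enzyme of glutathione synthesis, had -1.50 to -0.32 (median -0.54) at 20 weeks, against -0.06 to 1.75 (median 1.19) at 3 weeks, and the weeks did not overlap. Its difference was -1.66 ± 0.27, adjusted p = 0.00116. Phgdh, which opens the synthesis of serine, had -0.91 to -0.18 (median -0.36) at 20 weeks, against 0.03 to 1.10 (median 0.51) at 3 weeks (difference -0.96 ± 0.17, adjusted p = 0.00254), also without overlap.

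Ces2a, a carboxylesterase, averaged -0.68 ± 0.47 at 20 weeks and 0.48 ± 0.61 at 3 weeks (difference -1.16 ± 0.20, adjusted p = 0.00152). Set, a histone chaperone and phosphatase inhibitor, averaged -0.43 ± 0.36 at 20 weeks and 0.43 ± 0.23 at 3 weeks (difference -0.86 ± 0.15, adjusted p = 0.00152). In both, 1 array of a week lay on the other side of 0 and the weeks overlapped.

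**Figure D2:**
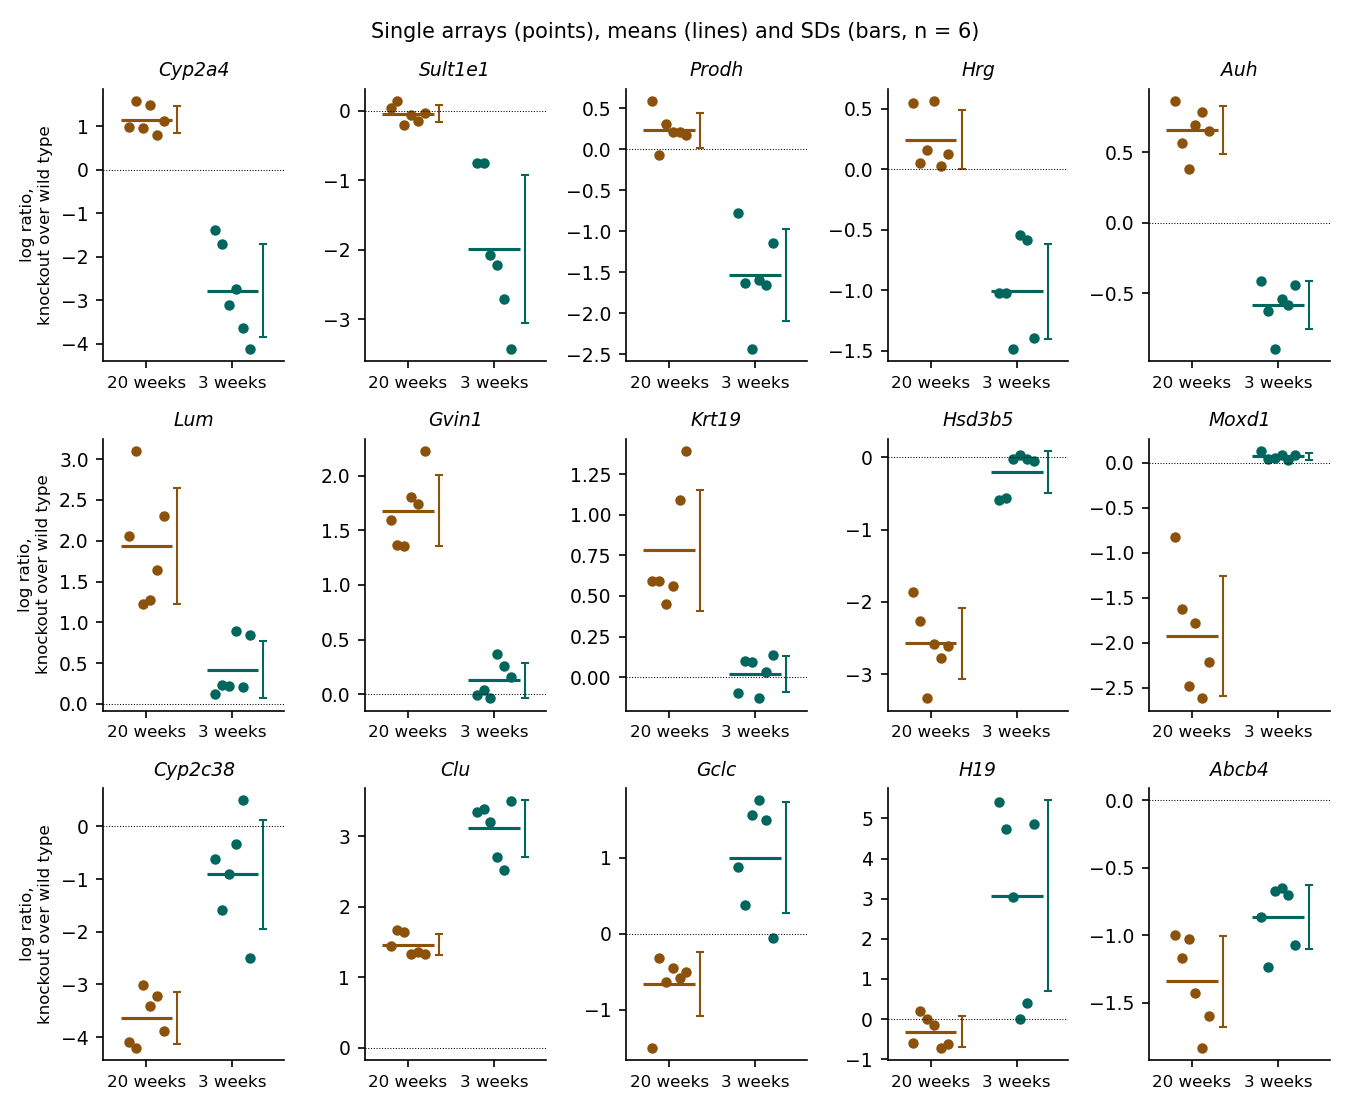
Log ratios of knockout over wild type for 15 genes, with the 6 arrays of 20 weeks on the left and the 6 of 3 weeks on the right of each panel; lines are means, bars are SDs and the dotted line marks no difference between the genotypes. Arrays of the 2 weeks overlap only for H19 and Abcb4, and the spread at 3 weeks is wide for Cyp2a4, Sult1e1 and H19.

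In the 2 lists of sex-biased liver genes used here, called male-biased genes all had negative differences and called female-biased genes all positive ones. The lists were chosen with earlier results of these data known, and genes outside them were not examined for sex bias. Of 11 measured male-biased genes, 5 had a negative and 0 a positive difference, with a median difference of -1.03, while 4 of the 6 not called lay above 0. Of 19 measured female-biased genes, 7 had a positive and 0 a negative difference, with a median of 0.66. Over everything tested the shares were 1.54% negative and 3.02% positive and the median was 0.0008. The array medians of the male-biased genes lay between -0.86 and -0.37 at 20 weeks and between -0.30 and 0.06 at 3 weeks. At 3 weeks they were -0.30 and -0.27 on arrays 1 and 2 and between -0.03 and 0.06 on arrays 3 to 6.

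Hsd3b5, a male-specific 3-keto reductase of steroids in mouse liver, showed the largest fall of the male-biased genes. The lowest, median and highest log ratios of Hsd3b5 were -3.34, -2.60 and -1.87 at 20 weeks, against -0.59, -0.04 and 0.04 at 3 weeks. Wild type exceeded the knockout on every array of 20 weeks. At 3 weeks Hsd3b5 was at -0.59 and -0.56 on arrays 1 and 2 and between -0.05 and 0.04 on arrays 3 to 6. The difference was -2.37 ± 0.37, adjusted p = 0.000776. Hsd3b4, a relative whose probe may bind Hsd3b5 transcripts, gave -3.81 to -1.96 (median -2.55) at 20 weeks, against -0.90 to 0.05 (median -0.06) at 3 weeks (difference -2.31 ± 0.40, adjusted p = 0.00198).

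Moxd1, a monooxygenase-like secretory protein, was at 0 within narrow bounds at 3 weeks and below 0 on every array at 20 weeks. The lowest, median and highest log ratios of Moxd1 were -2.62, -2.0 and -0.82 at 20 weeks, against 0.03, 0.07 and 0.13 at 3 weeks, a difference of -1.99 ± 0.26, adjusted p = 0.000166. Susd4, a membrane regulator of complement, had -1.67 to -0.87 (median -1.38) at 20 weeks, against -0.09 to 0.20 (median -0.02) at 3 weeks (difference -1.38 ± 0.26, adjusted p = 0.00387). Elovl3, an elongase of long fatty acids, had -2.12 to -0.94 (median -1.44) at 20 weeks, against -0.67 to 0.06 (median -0.22) at 3 weeks (difference -1.29 ± 0.27, adjusted p = 0.00714).

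These 4 genes, Hsd3b5, Moxd1, Susd4 and Elovl3, were lower in the knockout at 20 weeks and not past the test at 3 weeks. The fifth of the negative differences was of another kind and is named after its values were seen. Gstp1, a glutathione transferase that male mice express more, averaged 0.19 ± 0.61 at 20 weeks and 1.79 ± 0.49 at 3 weeks, so its knockout was higher at 3 weeks alone (difference -1.60 ± 0.35, adjusted p = 0.00951). Array 2 of 20 weeks stood apart from the other 5 in Gstp1 at 1.42.

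Cyp2a4, given above, was past the test at both weeks, and the other called female-biased genes were not past it at 20 weeks. Sult1e1, the estrogen sulfotransferase, had -0.20 to 0.14 (median -0.04) at 20 weeks, against -3.42 to -0.75 (median -2.15) at 3 weeks, below 0 on all arrays of 3 weeks and close to 0 on all of 20 weeks. Its difference was 1.95 ± 0.30, adjusted p = 0.00057. Cyp2c40, a cytochrome that hydroxylates arachidonic acid, had -0.51 to 0.27 (median -0.40) at 20 weeks, against -3.73 to -0.70 (median -1.86) at 3 weeks (difference 1.81 ± 0.40, adjusted p = 0.0118). Tox, a nuclear protein best known from T cell development, moved less, at 0.10 ± 0.06 at 20 weeks and -0.41 ± 0.24 at 3 weeks (difference 0.51 ± 0.10, adjusted p = 0.004).

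The remaining called members, named after their values were seen, were Cyp2b9 and Cyp2b13, cytochromes, and Cux2, a repressor of male-biased genes in female liver, with differences of 1.13 ± 0.30, 0.83 ± 0.22 and 0.26 ± 0.07. The female-biased count of 7 was 4 without array 6 of 3 weeks, and likewise without arrays 1, 2, 3 or 6 of 20 weeks, each left out alone. It was 3 with arrays 1 and 2 of 20 weeks left out together, an alternative chosen after the data had been seen. The negative count of the male-biased genes was 5 whichever single array was left out.

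Cyp2c38 had the largest negative difference among named genes whose weeks did not overlap, clone and predicted names aside. Its difference was in the opposite sense to that of its relative Cyp2c40. Both are arachidonic acid metabolising cytochromes of the Cyp2c cluster, and a probe of one may bind transcripts of others. The lowest, median and highest log ratios of Cyp2c38 were -4.20, -3.65 and -3.02 at 20 weeks, against -2.50, -0.76 and 0.49 at 3 weeks. The weeks did not overlap, the knockout was lower at both weeks by the test, and the difference was -2.73 ± 0.37, adjusted p = 0.000199.

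Promoters are shown for Hsd3b5 and Cyp2a4, with the largest fall of the male-biased and the largest rise of the female-biased genes. Those of Cyp2c38 and Cyp2c40, whose differences between the weeks had opposite signs, are added. They are as RefSeq gives them in build GRCm38.p6, from 250 bases before to 50 bases after the start of each gene. The windows are chr3:98645485-98645784 (minus strand) for Hsd3b5, chr19:39463026-39463325 (minus strand) for Cyp2c38, chr7:26306942-26307241 (plus strand) for Cyp2a4 and chr19:39812765-39813064 (minus strand) for Cyp2c40. Capitals mark matches on either strand to TTCNNNGAA (a STAT motif), CAAAGTCCA (an HNF4 motif) and ATTGAT (an HNF6 motif). Capitals also mark matches on either strand to TATAAA, the letters of a TATA box, wherever they lie in the window.
Hsd3b5: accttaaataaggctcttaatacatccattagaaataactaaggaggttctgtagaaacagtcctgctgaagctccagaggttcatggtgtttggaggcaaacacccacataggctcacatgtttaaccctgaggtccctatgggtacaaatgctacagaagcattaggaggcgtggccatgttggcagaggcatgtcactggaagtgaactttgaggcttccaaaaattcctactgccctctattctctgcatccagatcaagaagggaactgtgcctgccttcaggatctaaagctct
Cyp2c38: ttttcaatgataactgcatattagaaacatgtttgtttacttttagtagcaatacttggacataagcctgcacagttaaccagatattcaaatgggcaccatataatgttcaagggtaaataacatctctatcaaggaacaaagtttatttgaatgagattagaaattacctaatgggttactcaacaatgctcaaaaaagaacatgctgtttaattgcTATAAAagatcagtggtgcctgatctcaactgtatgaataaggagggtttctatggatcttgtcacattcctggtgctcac
Cyp2a4: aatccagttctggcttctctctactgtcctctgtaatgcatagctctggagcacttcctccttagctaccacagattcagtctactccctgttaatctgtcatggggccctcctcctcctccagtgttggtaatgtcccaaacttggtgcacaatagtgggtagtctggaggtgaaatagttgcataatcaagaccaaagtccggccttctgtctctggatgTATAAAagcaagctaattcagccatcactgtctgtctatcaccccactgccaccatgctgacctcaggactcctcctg
Cyp2c40: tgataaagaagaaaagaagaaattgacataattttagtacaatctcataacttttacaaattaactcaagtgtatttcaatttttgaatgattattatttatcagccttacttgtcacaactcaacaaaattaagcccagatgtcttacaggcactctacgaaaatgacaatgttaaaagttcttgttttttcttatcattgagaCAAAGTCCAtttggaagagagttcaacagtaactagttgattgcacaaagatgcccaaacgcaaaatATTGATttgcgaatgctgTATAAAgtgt

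The motifs were chosen after some promoters had been scanned, and no match overlapped another. Cyp2c40 held 1 match each of CAAAGTCCA, ATTGAT and TATAAA, Cyp2c38 and Cyp2a4 held TATAAA alone, and the window of Hsd3b5 had no match to these letters. Counted from the first base of the window, TATAAA began at base 220 in Cyp2c38 and 223 in Cyp2a4, both before the start of the gene, and at base 291 in Cyp2c40, after it. Of 32851 promoters of the same length, 8.3% held TTCNNNGAA, 0.475% CAAAGTCCA, 7.54% ATTGAT and 13.6% TATAAA. Position by position without gaps, the windows of Cyp2c38 and Cyp2c40 shared 83 of 300 bases (27.7%). The windows were not aligned, and TATAAA began at base 220 in Cyp2c38 but at base 291 in Cyp2c40. A count without gaps misses likeness between shifted stretches, so it cannot tell whether these promoters are related. A match describes the sequence and was not measured as a bound site here.

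The growth hormone and IGF axis, which drives the male pattern, had 3 called members of 23. Igfbp7, a secreted binding protein also made by stellate and endothelial cells, had 1.34 to 1.78 (median 1.56) at 20 weeks, against -0.66 to 1.04 (median 0.60) at 3 weeks (difference 1.09 ± 0.25, adjusted p = 0.0135). Socs2, a feedback inhibitor of growth hormone signalling, averaged 0.61 ± 0.63 at 20 weeks and -0.65 ± 0.50 at 3 weeks and passed at neither week alone (difference 1.26 ± 0.30, adjusted p = 0.0168). Jak2, the kinase of the growth hormone receptor, averaged -0.16 ± 0.09 at 20 weeks and 0.19 ± 0.23 at 3 weeks (difference -0.35 ± 0.09, adjusted p = 0.031), a call that ended without array 1, 3 or 5 of 3 weeks or without array 1, 3, 4 or 6 of 20 weeks, each left out alone.

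Further genes that were lower in the knockout at 20 weeks but not at 3 weeks included several enzymes of the hepatocyte. Ces1f, a carboxylesterase of lipid and drug hydrolysis, had -2.62 to -1.07 (median -1.59) at 20 weeks, against -0.27 to 0.47 (median 0.00) at 3 weeks (difference -1.81 ± 0.28, adjusted p = 0.000662). Sdr9c7, a short-chain dehydrogenase, had -1.95 to -1.53 (median -1.85) at 20 weeks, against -0.84 to 0.36 (median -0.03) at 3 weeks (difference -1.65 ± 0.24, adjusted p = 0.00047), with the 6 arrays of 20 weeks closely grouped. Pmm1, a phosphomannomutase, had -2.21 to -0.91 (median -1.62) at 20 weeks, against -0.48 to 1.07 (median 0.49) at 3 weeks (difference -1.95 ± 0.34, adjusted p = 0.00188).

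Ascc2, a subunit of a transcription coactivator and repair complex, averaged -1.47 ± 0.62 at 20 weeks and -0.03 ± 0.22 at 3 weeks (difference -1.44 ± 0.31, adjusted p = 0.00984). In none of Ces1f, Sdr9c7, Pmm1 and Ascc2 did the weeks overlap.

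Phase I metabolism had 7 negative and 3 positive differences among 33 measured genes, with a median of -0.12. On the negative side, Cyp1a2, a caffeine and xenobiotic oxidase, averaged -1.45 ± 0.84 at 20 weeks and 0.36 ± 0.90 at 3 weeks (difference -1.81 ± 0.39, adjusted p = 0.00966). Aldh1a1, a retinal dehydrogenase, and Cyp2c55, a cytochrome, changed on the 3-week side: Aldh1a1 averaged 0.10 ± 0.24 at 20 weeks and 1.79 ± 1.25 at 3 weeks and Cyp2c55 0.08 ± 0.11 at 20 weeks and 1.11 ± 0.36 at 3 weeks. Their differences were -1.69 ± 0.37, adjusted p = 0.0098 and -1.04 ± 0.13, adjusted p = 0.000166.

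On the positive side of phase I stood Fmo1, Cyp2j6 and Cyp3a13. Cyp2j6, an epoxygenase relative, averaged 0.51 ± 0.19 at 20 weeks and -0.09 ± 0.15 at 3 weeks (difference 0.60 ± 0.10, adjusted p = 0.00148), higher at 20 weeks alone. Cyp3a13 averaged 0.15 ± 0.47 at 20 weeks and -0.58 ± 0.31 at 3 weeks (difference 0.73 ± 0.18, adjusted p = 0.0207), a call that ended without array 3 or 5 of 3 weeks or array 1 of 20 weeks. Cyp1a2, Aldh1a1, Cyp2j6 and Cyp3a13 are named after their values were seen. The 7 negative calls became 4 with arrays 1 and 2 of 20 weeks left out together.

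Most enzymes of amino acid breakdown and the urea cycle were lower in the knockout at 3 weeks and not past the test at 20 weeks. Of 19 measured, 6 had a positive and 0 a negative difference, with a median of 0.60. By the tests of the single weeks, 2 of the 19 were lower in the knockout at 20 weeks, against 13 at 3 weeks. Everything tested had 3.02% with a positive difference, and 5.37% lower at 20 weeks against 3.75% at 3 weeks. The count of 6 was 3 when only the 12 arrays of both weeks were fitted.

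Got1, the cytosolic aspartate aminotransferase, had -0.67 to 1.87 (median 1.17) at 20 weeks, against -3.60 to 0.25 (median -1.86) at 3 weeks (difference 2.46 ± 0.51, adjusted p = 0.00718), and its weeks overlapped. Cth, which splits cystathionine to cysteine, had -0.81 to 0.34 (median 0.09) at 20 weeks, against -2.52 to -0.69 (median -1.74) at 3 weeks (difference 1.58 ± 0.27, adjusted p = 0.00174). Gpt, the alanine aminotransferase, had -0.05 to 0.81 (median 0.37) at 20 weeks, against -1.15 to -0.20 (median -0.56) at 3 weeks and no overlap (difference 0.99 ± 0.17, adjusted p = 0.0022). Gnmt, a glycine methyltransferase that uses up methyl groups, averaged -0.20 ± 0.46 at 20 weeks and -1.34 ± 0.55 at 3 weeks (difference 1.14 ± 0.24, adjusted p = 0.00718).

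Beyond the fixed group, Prodh and Aass belong to the same branch of metabolism and were among the largest positive differences. Prodh, the first enzyme of proline oxidation, had -0.07 to 0.58 (median 0.20) at 20 weeks, against -2.44 to -0.78 (median -1.61) at 3 weeks (difference 1.77 ± 0.22, adjusted p = 0.000112). Aass, the first enzyme of lysine breakdown, had -0.08 to 0.56 (median 0.19) at 20 weeks, against -2.34 to -0.27 (median -1.16) at 3 weeks (difference 1.40 ± 0.25, adjusted p = 0.00231). Both were below 0 on all 6 arrays of 3 weeks and showed no overlap with 20 weeks.

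The arrays of 3 weeks disagreed on this group. Its array medians were 0.11, -0.89, 0.13, -0.25, -0.05 and 0.02 on arrays 1 to 6 of 20 weeks, against 0.14 and -0.07 on arrays 1 and 2 of 3 weeks and between -1.39 and -0.91 on arrays 3 to 6. Arrays 1 and 2 of 3 weeks also had medians of -1.78 and -1.70 for cholesterol synthesis, against -0.23 to 0.22 on the other 4 arrays. The median difference of cholesterol synthesis was 0.56 over 18 genes, with 1 called, and was -0.02 without those 2 arrays. The fasting and glucocorticoid response genes had medians of 0.38 and 0.15 on arrays 1 and 2 of 3 weeks and between -1.62 and -0.23 on arrays 3 to 6. With arrays 1 and 2 of 3 weeks left out together, 994 items were called in all (674 positive, 320 negative), and the urea cycle and amino acid group had 9 positive calls and a median difference of 1.02.

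The 1 gene called in cholesterol synthesis was Ebp, a sterol isomerase, at -0.24 ± 0.25 at 20 weeks and -1.0 ± 0.59 at 3 weeks (difference 0.77 ± 0.18, adjusted p = 0.0188), and that call ended without array 1 or 3 of 3 weeks or array 1 of 20 weeks. The fasting and glucocorticoid response had 1 positive and 1 negative difference among 13 genes, with a median of -0.06. The positive one was Eif4ebp3, a translation repressor, which averaged -0.43 ± 0.79 at 20 weeks and -2.84 ± 1.28 at 3 weeks (difference 2.41 ± 0.53, adjusted p = 0.0106). It was below 0 on every array of 3 weeks and mixed at 20 weeks. The negative one was Asns, the asparagine synthetase, at -0.56 ± 0.21 at 20 weeks and -0.16 ± 0.16 at 3 weeks (difference -0.40 ± 0.10, adjusted p = 0.0184).

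**Figure D3:**
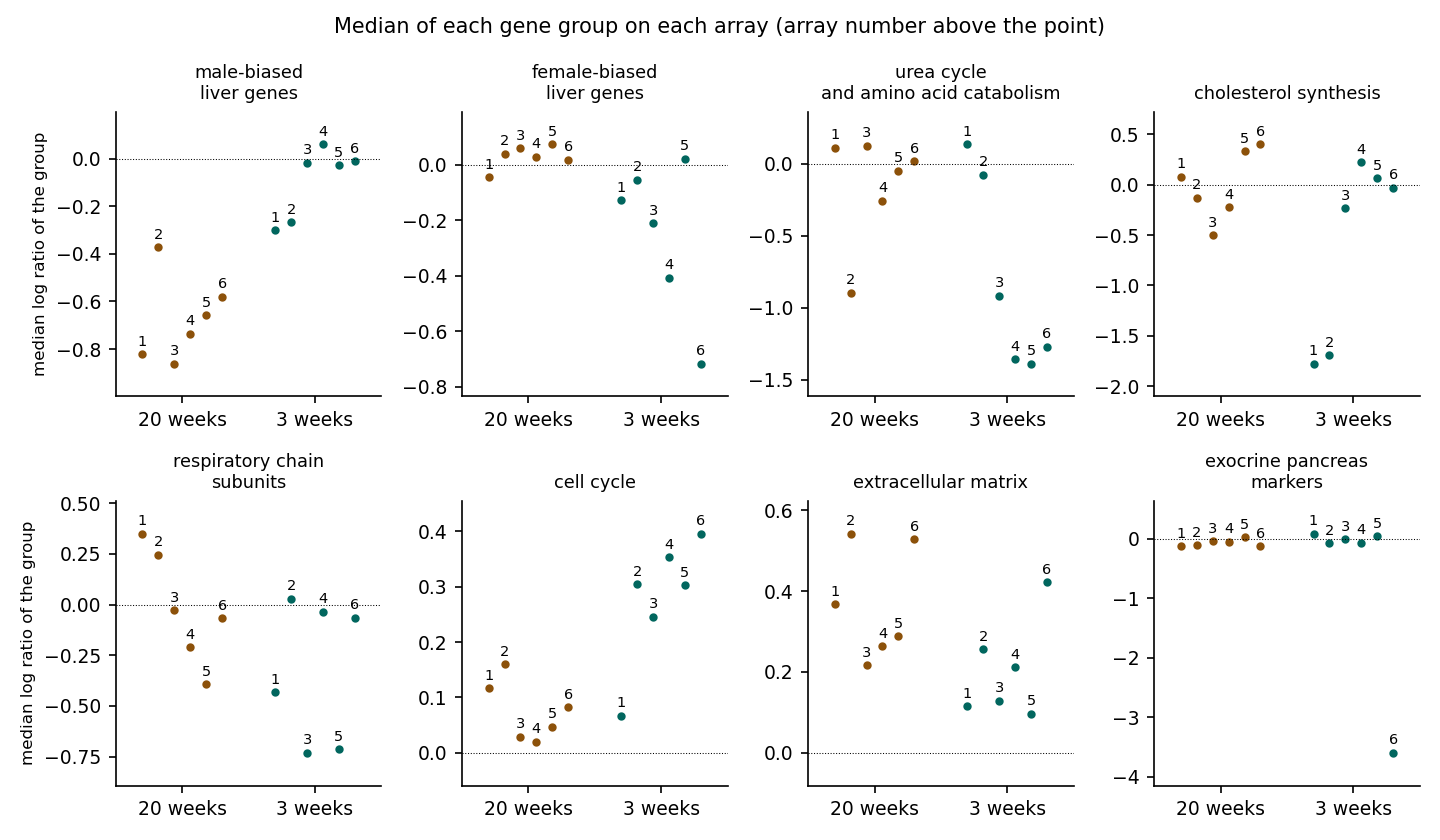
Median log ratio of each of 8 gene groups on every array, with arrays of 20 weeks left and of 3 weeks right in each panel and the array number above its point. Arrays 1 and 2 of 3 weeks stand apart in cholesterol synthesis and in the urea cycle and amino acid group, and array 6 of 3 weeks stands alone in the exocrine pancreas markers.

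Secreted and metabolic products of hepatocytes had 9 positive and 1 negative difference among 32 measured, with a median of 0.17. Hrg, a plasma glycoprotein, had 0.02 to 0.56 (median 0.15) at 20 weeks, against -1.48 to -0.55 (median -1.02) at 3 weeks, below 0 on every array of 3 weeks and above 0 on every array of 20 weeks. Its difference was 1.26 ± 0.14, adjusted p = 3.91e-05. Apoc3, an apolipoprotein that slows triglyceride clearance, had -0.10 to 0.40 (median 0.16) at 20 weeks, against -1.69 to -0.47 (median -1.38) at 3 weeks and no overlap (difference 1.28 ± 0.19, adjusted p = 0.000527).

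Hpd, an enzyme of tyrosine breakdown one step before Hgd, averaged 0.12 ± 0.43 at 20 weeks and -0.71 ± 0.57 at 3 weeks (difference 0.83 ± 0.17, adjusted p = 0.00651). Slc37a4, the glucose-6-phosphate transporter of the endoplasmic reticulum, is outside the group and had -0.48 to 0.32 (median 0.05) at 20 weeks, against -2.65 to -0.97 (median -1.41) at 3 weeks (difference 1.51 ± 0.19, adjusted p = 0.000139). The single negative call of the group was Serpinc1, which encodes antithrombin, at -0.47 ± 0.53 at 20 weeks and 0.44 ± 0.62 at 3 weeks (difference -0.91 ± 0.22, adjusted p = 0.0197); it is named after its values were seen. That call ended without array 1 or 3 of 3 weeks or array 1 or 2 of 20 weeks, and the positive count was 5 without array 3 of 3 weeks, 6 without array 5 of 3 weeks and 4 without array 1 of 20 weeks.

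Bile acid synthesis and its regulators had 4 positive and 0 negative differences among 20 genes, with a median of 0.15. Slc27a5, which activates bile acids for conjugation, had -0.43 to 0.34 (median -0.22) at 20 weeks, against -2.02 to -0.94 (median -1.24) at 3 weeks (difference 1.16 ± 0.15, adjusted p = 0.000189). Cyp39a1, an oxysterol hydroxylase, had -0.28 to -0.03 (median -0.14) at 20 weeks, against -2.13 to -0.44 (median -1.42) at 3 weeks (difference 1.20 ± 0.27, adjusted p = 0.0122). Both were below 0 on all arrays of 3 weeks and did not overlap 20 weeks.

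Cyp27a1, the sterol hydroxylase of the acidic pathway, was lower in the knockout at both weeks, and less so at 20 weeks. It averaged -0.53 ± 0.16 at 20 weeks and -1.23 ± 0.26 at 3 weeks, a difference of 0.70 ± 0.11, adjusted p = 0.000868. Nr1h4, the bile acid receptor FXR, averaged 0.34 ± 0.30 at 20 weeks and -0.56 ± 0.52 at 3 weeks (difference 0.91 ± 0.19, adjusted p = 0.00641), lower at 3 weeks and not past the test at 20 weeks. Among the hepatobiliary transporters, 0 of 16 were called in either direction by limma (3 at an unadjusted p under 0.05), and their median difference was -0.05.

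Acute phase proteins had 3 positive and 0 negative differences among 24, with a median of 0.22. Orm1 and Orm2, close relatives that encode orosomucoids and may share probes, had wide spreads. The lowest, median and highest log ratios of Orm1 were -1.18, -0.09 and 1.16 at 20 weeks, against -5.10, -2.02 and -0.63 at 3 weeks, and the weeks overlapped. The differences were 2.43 ± 0.50, adjusted p = 0.00629, for Orm1 and 2.06 ± 0.47, adjusted p = 0.0143, for Orm2. Serpina3n, a serpin of inflammation, averaged -0.25 ± 0.19 at 20 weeks and -1.45 ± 0.64 at 3 weeks (difference 1.21 ± 0.22, adjusted p = 0.00325).

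Subunits of the respiratory chain had 7 positive and 1 negative difference among 77, with a median of 0.27, and 68 of the 77 differences lay above 0. By the tests of the single weeks, 1 subunit was lower in the knockout at 20 weeks, against 22 at 3 weeks. Shares over everything tested were 3.02% with a positive difference, and 5.37% lower at 20 weeks against 3.75% at 3 weeks. Ndufb5 and Ndufa9, of complex I, had differences of 0.48 ± 0.08, adjusted p = 0.00149, and 0.46 ± 0.10, adjusted p = 0.00845. Ndufb5 averaged -0.04 ± 0.14 at 20 weeks and -0.51 ± 0.25 at 3 weeks and Ndufa9 0.00 ± 0.19 at 20 weeks and -0.46 ± 0.25 at 3 weeks. The negative one was Cox7b2, a testis-enriched subunit isoform named after its values were seen, at -0.35 ± 0.30 at 20 weeks and 0.06 ± 0.10 at 3 weeks (difference -0.41 ± 0.10, adjusted p = 0.0179).

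The positive count of the respiratory chain subunits moved with single arrays, from 2 without array 3 of 3 weeks or array 1 of 20 weeks, and 4 without array 1 or 5 of 3 weeks or array 2 of 20 weeks, to 14 without array 2 of 3 weeks. Their medians on arrays 1 to 6 were 0.35, 0.25, -0.03, -0.21, -0.39 and -0.07 at 20 weeks, against -0.43, 0.03, -0.73, -0.04, -0.71 and -0.06 at 3 weeks, so that arrays 1, 3 and 5 were the low ones of 3 weeks. Cytosolic ribosomal proteins, 70 measured, had 0 calls by limma (3 at an unadjusted p under 0.05) and a median difference of 0.05. Their medians on arrays 1 to 6 were 0.34, 0.47, -0.06, -0.14, -0.48 and -0.12 at 20 weeks, against -0.33, 0.27, -0.32, 0.31, -0.37 and 0.24 at 3 weeks, with the same 3 arrays of 3 weeks below 0.

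The amylases Amy1 and Amy2a5 were below wild type on every array of 3 weeks. Amy1, the amylase of salivary gland and liver, had -0.33 to 0.07 (median -0.12) at 20 weeks, against -4.11 to -0.52 (median -2.95) at 3 weeks, below 0 on all arrays of 3 weeks and without overlap (difference 2.45 ± 0.41, adjusted p = 0.00127). Amy2a5, the pancreatic form, averaged -0.41 ± 0.25 at 20 weeks and -2.50 ± 1.40 at 3 weeks (difference 2.10 ± 0.41, adjusted p = 0.00411), and relatives may bind the same probe. Amy2a5 was the single call among 23 exocrine pancreas markers. The median of these markers was -3.60 on array 6 of 3 weeks and between -0.07 and 0.08 on the other 5, while Amy1 was at -0.52 to -4.11 on those 5 arrays.

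Ugt2a3, a glucuronosyltransferase, was lower at 3 weeks and at 0 at 20 weeks, with -0.01 to 0.14 (median 0.01) at 20 weeks, against -1.50 to -0.46 (median -1.0) at 3 weeks (difference 1.00 ± 0.12, adjusted p = 0.000111). Along with Sult1d1, a sulfotransferase, it made up the 2 positive differences among 39 measured genes of phase II metabolism and antioxidant defence, of which 9 were negative and whose median was -0.08. Sult1d1, named after its values were seen, averaged 0.32 ± 0.23 at 20 weeks and -1.0 ± 1.02 at 3 weeks (difference 1.32 ± 0.34, adjusted p = 0.0284). Its call ended without array 4, 5 or 6 of 3 weeks or array 1, 3 or 6 of 20 weeks.

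The 9 negative phase II genes included Gclc, given above, and 5 glutathione transferases of the mu class, whose transcripts are alike enough to share probes. Gstm6 had -1.48 to 1.16 (median 0.45) at 20 weeks, against 0.14 to 3.17 (median 2.71) at 3 weeks (difference -1.98 ± 0.40, adjusted p = 0.0063). Gstm3 averaged 0.91 ± 0.67 at 20 weeks and 2.16 ± 0.66 at 3 weeks and was higher in the knockout at both weeks (difference -1.25 ± 0.28, adjusted p = 0.0124), as was Gstm1 at 0.86 ± 0.67 at 20 weeks and 2.09 ± 0.69 at 3 weeks (difference -1.23 ± 0.30, adjusted p = 0.0184). Gstm1 is named after its values were seen, and its call ended without array 1 of 20 weeks.

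The 9 negative phase II calls were 4 without array 3 or array 5 of 3 weeks, 5 without array 4 of either week and 3 without array 1 of 20 weeks. They were 1 when only the 12 arrays of both weeks were fitted, 2 with the closest pair of opposite dye orientation averaged in each week (arrays 5 and 6 of 20 weeks and 1 and 3 of 3 weeks) and 5 with arrays 1 and 2 of 20 weeks left out together.

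Clu, a secreted chaperone induced in stressed epithelium, was higher in the knockout at both weeks and more so at 3 weeks. The lowest, median and highest log ratios of Clu were 1.33, 1.41 and 1.67 at 20 weeks, against 2.53, 3.28 and 3.50 at 3 weeks, so all 12 arrays were above 0 and the weeks did not overlap. The difference was -1.65 ± 0.25, adjusted p = 0.000486. Krt18, a keratin of hepatocytes and bile ducts, had 0.44 to 1.25 (median 0.70) at 20 weeks, against 1.29 to 2.64 (median 2.15) at 3 weeks (difference -1.33 ± 0.23, adjusted p = 0.00196), with the same order and no overlap.

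H19, an imprinted noncoding RNA of the fetal liver, varied widely between the arrays of 3 weeks. Its 6 arrays of 20 weeks lay between -0.72 and 0.20, whereas arrays 1 to 6 of 3 weeks read 5.42, 4.73, 3.05, 0.00, 0.40 and 4.87. Arrays 4 and 5 of 3 weeks were thus close to 0 and the weeks overlapped. The difference was -3.39 ± 0.67, adjusted p = 0.00462, and it ranged from -4.02 to -2.92 when 1 array was left out.

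Of 16 fetal liver and imprinted genes, 2 were called, both negative, and the median difference was -0.10. The other was Afp, the fetal albumin relative alpha-fetoprotein, at -0.09 ± 0.16 at 20 weeks and 0.30 ± 0.36 at 3 weeks (difference -0.39 ± 0.10, adjusted p = 0.0342). The Afp call ended without array 1, 2, 3 or 6 of 3 weeks or array 1, 2, 3 or 5 of 20 weeks.

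Cell cycle genes mostly had small negative differences. Of 51 measured, 48 had a difference below 0 and the median was -0.23, yet only 3 passed the test and all 3 were negative. By the tests of the single weeks, 4 were higher and 2 lower in the knockout at 20 weeks, against 21 higher and 0 lower at 3 weeks. Everything tested had 1.54% with a negative difference, and 8.09% higher at 20 weeks against 3.64% at 3 weeks. The array medians ran from 0.02 to 0.16 at 20 weeks and from 0.07 to 0.40 at 3 weeks.

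Hmgb2, a chromatin protein of dividing cells, had -0.70 to 0.06 (median -0.11) at 20 weeks, against 0.38 to 0.90 (median 0.73) at 3 weeks and no overlap (difference -0.88 ± 0.13, adjusted p = 0.000437). Birc5, the mitotic regulator survivin, averaged -0.07 ± 0.20 at 20 weeks and 0.54 ± 0.36 at 3 weeks (difference -0.61 ± 0.13, adjusted p = 0.0109). Kif20a, a kinesin of cytokinesis, averaged -0.47 ± 0.24 at 20 weeks and 0.20 ± 0.23 at 3 weeks (difference -0.68 ± 0.18, adjusted p = 0.031), so it was lower at 20 weeks rather than higher at 3 weeks. The Kif20a call ended without array 3, 5 or 6 of 3 weeks or array 1, 2, 3, 5 or 6 of 20 weeks, and the group's count was 6 without array 1 and 5 without array 2 of 3 weeks.

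Spen, a transcriptional repressor, and Ldha, the lactate dehydrogenase of muscle type, were higher in the knockout at 3 weeks and not past the test at 20 weeks. Spen had -0.82 to 0.42 (median 0.11) at 20 weeks, against 0.74 to 1.75 (median 1.13) at 3 weeks (difference -1.31 ± 0.23, adjusted p = 0.00191). Ldha had -0.53 to -0.08 (median -0.35) at 20 weeks, against 0.19 to 1.47 (median 0.93) at 3 weeks (difference -1.17 ± 0.18, adjusted p = 0.000783). Neither overlapped between the weeks. Ldha was the 1 negative call among 21 measured genes of glucose metabolism, of which 2 had a positive difference and whose median was -0.02.

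**Figure D4:**
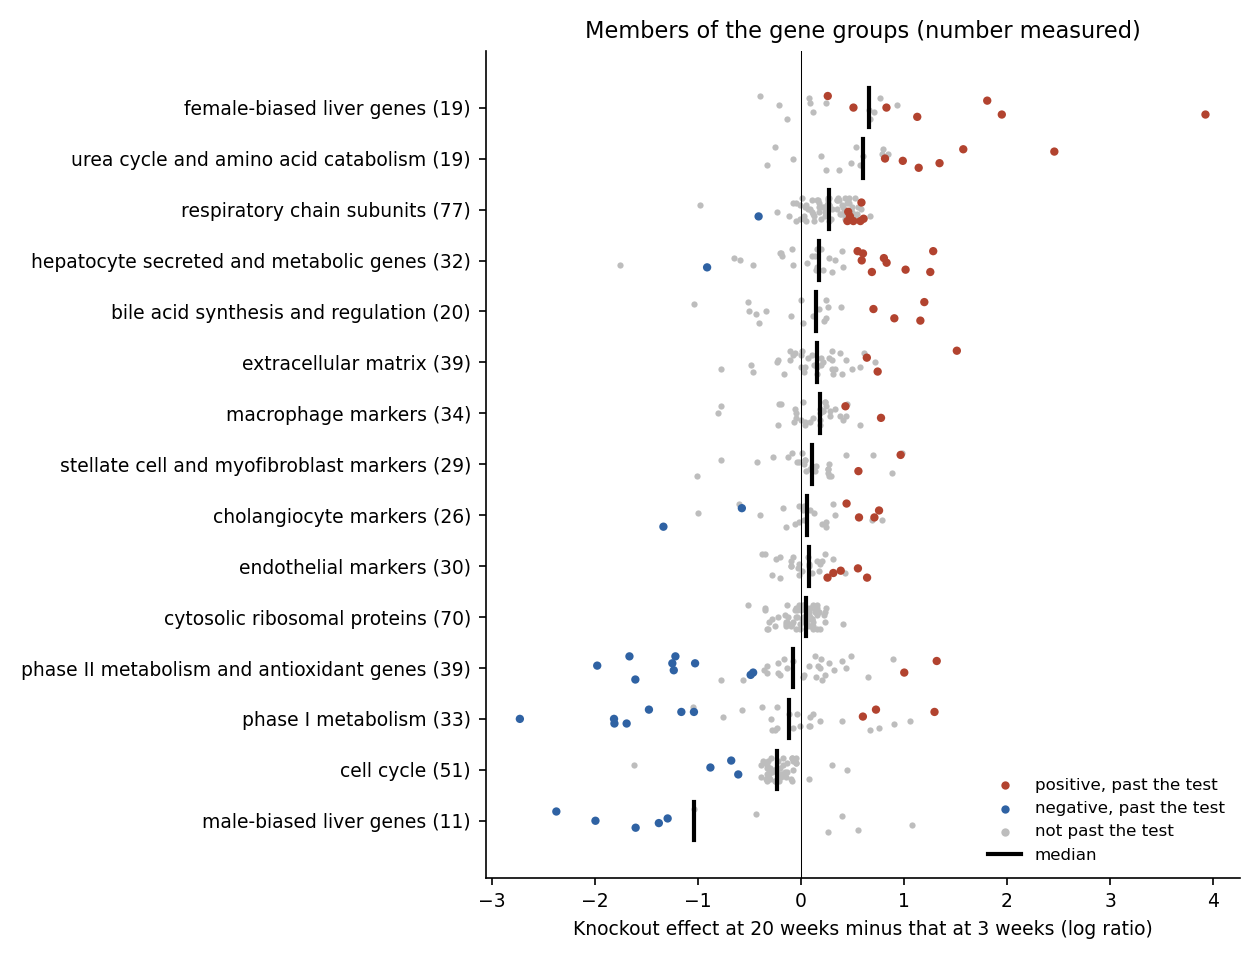
Knockout effect at 20 weeks minus that at 3 weeks for every measured member of 15 gene groups, with the number measured in brackets; coloured points passed the test and black bars are group medians. The male-biased genes have the lowest median (-1.03) and the female-biased genes the highest (0.66), and the ribosomal proteins hold no coloured point.

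Few genes of the matrix and of mesenchymal cells passed the test of the difference, and those that did had positive differences. In bulk liver RNA, more cells of a type and more RNA per cell cannot be told apart. Of 39 extracellular matrix genes, 3 had a positive and 0 a negative difference, with a median of 0.16. The positive share over everything tested was 3.02%. By the tests of the single weeks, 24 of the 39 were higher in the knockout at 20 weeks and 10 at 3 weeks. Over everything tested these shares were 8.09% and 3.64%.

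Lum, the proteoglycan lumican that spaces collagen fibrils, had 1.22 to 3.10 (median 1.85) at 20 weeks, against 0.12 to 0.89 (median 0.23) at 3 weeks, above 0 on all arrays and without overlap. Its difference was 1.51 ± 0.25, adjusted p = 0.00121. Fbln5, an elastic fibre protein, had 0.71 to 1.32 (median 0.96) at 20 weeks, against -0.20 to 0.63 (median 0.21) at 3 weeks (difference 0.74 ± 0.17, adjusted p = 0.0145). Sparc, a collagen-binding glycoprotein, averaged 0.91 ± 0.21 at 20 weeks and 0.28 ± 0.53 at 3 weeks (difference 0.64 ± 0.18, adjusted p = 0.0419).

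The Sparc call ended without array 1, 3, 4 or 5 of 3 weeks and without any 1 array of 20 weeks. The count of the extracellular matrix genes was 6 without array 2 of 3 weeks and 2 without array 5 of 20 weeks. It was 8 after quantile normalization.

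Matrix remodelling had 3 positive and 0 negative differences among 32, with a median of 0.05. Timp3, a metalloproteinase inhibitor bound to matrix, had 0.32 to 0.83 (median 0.62) at 20 weeks, against -0.44 to 0.06 (median -0.17) at 3 weeks (difference 0.79 ± 0.15, adjusted p = 0.00419). Mmp7, the matrilysin of ductal epithelium, had 0.31 to 1.40 (median 0.63) at 20 weeks, against -0.18 to 0.14 (median -0.04) at 3 weeks (difference 0.79 ± 0.15, adjusted p = 0.00423). Mmp2, a gelatinase of mesenchymal cells, averaged 0.67 ± 0.23 at 20 weeks and 0.08 ± 0.25 at 3 weeks (difference 0.59 ± 0.14, adjusted p = 0.0167).

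Of 29 stellate cell and myofibroblast markers, 2 were positive, against a share of 3.02% over everything tested. The median difference was 0.10, with array medians of 0.11 to 0.45 at 20 weeks and 0.03 to 0.20 at 3 weeks. Vim, the intermediate filament vimentin, was higher in the knockout at both weeks and more so at 20 weeks, at 1.73 ± 0.31 at 20 weeks and 0.77 ± 0.50 at 3 weeks (difference 0.97 ± 0.25, adjusted p = 0.031). Pdgfra, a receptor of mesenchymal growth factors, averaged 0.54 ± 0.25 at 20 weeks and -0.02 ± 0.15 at 3 weeks (difference 0.56 ± 0.14, adjusted p = 0.0207). The count was 0 without array 3 of 3 weeks or array 2 of 20 weeks, 1 without array 1 or 5 of 3 weeks or array 5 or 6 of 20 weeks, and 5 without array 2 of 3 weeks.

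Bile duct markers split. Of 26 cholangiocyte markers, 4 were positive and 2 negative, with a median of 0.06 and array medians of 0.26 to 0.69 at 20 weeks and 0.17 to 0.26 at 3 weeks. Krt19, the duct keratin, had 0.45 to 1.39 (median 0.59) at 20 weeks, against -0.13 to 0.13 (median 0.06) at 3 weeks and no overlap (difference 0.76 ± 0.14, adjusted p = 0.00254). Krt7, its partner in ducts, had -0.04 to 0.78 (median 0.38) at 20 weeks, against -0.13 to 0.03 (median -0.07) at 3 weeks (difference 0.44 ± 0.10, adjusted p = 0.016).

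Epcam, an adhesion molecule of ducts and progenitors, averaged 0.97 ± 0.50 at 20 weeks and 0.26 ± 0.12 at 3 weeks (difference 0.71 ± 0.17, adjusted p = 0.0204), and Slc5a1, a sodium and glucose cotransporter, 0.74 ± 0.42 at 20 weeks and 0.18 ± 0.04 at 3 weeks (difference 0.56 ± 0.13, adjusted p = 0.0166). The 2 negative ones were Krt18, given above, and Slc4a2, an anion exchanger, at -0.40 ± 0.28 at 20 weeks and 0.17 ± 0.27 at 3 weeks (difference -0.57 ± 0.14, adjusted p = 0.0222). Epcam and Slc4a2 are named after their values were seen. The Epcam call ended without array 6 of 20 weeks, and that of Slc4a2 without array 1 or 3 of 3 weeks or array 1 of 20 weeks; the negative count was 4 without array 5 of 3 weeks.

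Macrophage markers had 2 positive differences among 34, against a share of 3.02% over everything tested. Their median difference was 0.18, with array medians of 0.20 to 0.64 at 20 weeks and 0.06 to 0.43 at 3 weeks. Lyz2, the lysozyme of myeloid cells, was higher in the knockout on all 12 arrays, at 1.80 ± 0.33 at 20 weeks and 1.02 ± 0.45 at 3 weeks (difference 0.78 ± 0.19, adjusted p = 0.0225). Trem2, a lipid-sensing receptor of scar-associated macrophages, averaged 0.50 ± 0.30 at 20 weeks and 0.07 ± 0.04 at 3 weeks (difference 0.43 ± 0.11, adjusted p = 0.0278). The count was 0 without array 3 of 3 weeks or array 2 of 20 weeks and 1 without array 1 of 3 weeks or array 6 of 20 weeks.

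Endothelial markers had 5 positive and 0 negative differences among 30, with a median of 0.07 and array medians of -0.15 to 0.10 at 20 weeks and -0.17 to 0.07 at 3 weeks. Cd34, a sialomucin of capillary and progenitor cells, had 0.31 to 1.04 (median 0.71) at 20 weeks, against -0.10 to 0.37 (median 0.01) at 3 weeks (difference 0.64 ± 0.13, adjusted p = 0.00573). Ramp2, a partner of the adrenomedullin receptor, had 0.12 to 0.62 (median 0.28) at 20 weeks, against -0.49 to 0.06 (median -0.23) at 3 weeks and no overlap (difference 0.55 ± 0.08, adjusted p = 0.000286).

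The other 3 endothelial genes, Sox18, a transcription factor, Mmrn2, a matrix protein of vessels, and Robo4, a guidance receptor, had differences of 0.39 ± 0.10, 0.31 ± 0.07 and 0.26 ± 0.07 (adjusted p = 0.0225, 0.0172 and 0.0289). Robo4 is named after its values were seen. Both Mmrn2 and Robo4 averaged -0.19 at 3 weeks, lower by the test, and did not pass at 20 weeks. Of the 30 endothelial markers, 3 were higher and 3 lower at 20 weeks, against 0 higher and 4 lower at 3 weeks. The endothelial count was 3 without array 1 of 3 weeks or array 1 or 2 of 20 weeks, and 1 with arrays 1 and 2 of 20 weeks left out together.

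Jchain, the joining chain of secreted antibodies and a plasma cell marker, was the 1 call among 30 lymphocyte markers, whose median difference was -0.02. It had 0.20 to 1.02 (median 0.70) at 20 weeks, against -0.04 to 0.08 (median 0.03) at 3 weeks, and the weeks did not overlap (difference 0.63 ± 0.09, adjusted p = 0.000377). Ifi27l2b, an interferon-induced mitochondrial protein, was strongly higher at both weeks and more so at 20 weeks, at 3.46 ± 0.49 at 20 weeks and 2.23 ± 0.51 at 3 weeks (difference 1.23 ± 0.26, adjusted p = 0.00698). It was the only call among 36 interferon-induced genes, whose median difference was 0.04. Such single calls in groups of 30 and 36 are near the 3.02% positive share of everything tested.

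Gvin1, an interferon-inducible large GTPase outside that group, and Casp12, a caspase of the endoplasmic reticulum, were among the largest positive differences. Gvin1 had 1.35 to 2.23 (median 1.67) at 20 weeks, against -0.04 to 0.37 (median 0.10) at 3 weeks (difference 1.55 ± 0.23, adjusted p = 0.000486). Casp12 had 0.84 to 2.20 (median 1.42) at 20 weeks, against 0.01 to 0.16 (median 0.13) at 3 weeks (difference 1.38 ± 0.23, adjusted p = 0.00115). Both were close to 0 at 3 weeks and above every 3-week array at 20 weeks.

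Tff2, a trefoil peptide of mucosal repair, had 0.51 to 1.29 (median 0.84) at 20 weeks, against -2.03 to 0.28 (median -0.01) at 3 weeks (difference 1.17 ± 0.26, adjusted p = 0.012). Its lowest value came from array 6 of 3 weeks, the array with low pancreas markers; without that array the difference was 0.81. Jun, an immediate early transcription factor, had 0.63 to 1.92 (median 1.36) at 20 weeks, against 0.18 to 0.60 (median 0.37) at 3 weeks (difference 0.95 ± 0.25, adjusted p = 0.0287) as the 1 call of 16 immediate early genes, whose median difference was 0.34. The Jun call ended without array 1 or 3 of 3 weeks or array 1, 2, 4 or 6 of 20 weeks.

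With arrays 1 and 2 of 20 weeks left out together, the positive counts were 4 for the hepatocyte products, 2 for bile acid synthesis, 1 for the respiratory chain and 0 for both stellate and macrophage markers, and the negative count of the cell cycle was 1. With arrays 1 and 2 of 3 weeks left out together, the respiratory chain had 15 positive calls, phase I had 13 and the cell cycle 6 negative ones, and the macrophage markers had 0.

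No call in either direction was made among 10 MHC class II genes, 35 chemokines and cytokines, 18 circadian genes, 26 chaperones or 22 genes of fatty acid and triglyceride synthesis. Their median differences, in the same order, were -0.02, 0.07, 0.02, -0.02 and 0.03, and 3, 11, 3, 9 and 8 of them had an unadjusted limma p under 0.05.

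The arrays of 6 and 9 weeks, which enter the fit but not the difference, place the named genes in time. The means at 3, 6, 9 and 20 weeks were -0.20, -2.08, -3.81 and -2.57 for Hsd3b5 and -0.26, -0.96, -2.76 and -1.56 for Elovl3, both lowest at 9 weeks. For Moxd1 they were 0.07, -0.02, -0.85 and -1.93, so its mean was near 0 until 6 weeks. For Sult1e1 they were -1.99, 0.11, 0.02 and -0.04, and the 3-week value stood alone.

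Lum and Krt19 were near their 20-week means by 9 weeks, with 0.42, 1.45, 1.86 and 1.93 for Lum and 0.02, 0.51, 0.86 and 0.78 for Krt19. Jchain was near 0 until 9 weeks, with 0.03, -0.07, 0.10 and 0.66. Cyp2a4 passed 0 between 6 and 9 weeks, with -2.78, -0.78, 0.33 and 1.15, and Auh between 3 and 6 weeks, with -0.59, 0.26, 0.21 and 0.66. Phgdh stayed above 0 until 9 weeks, with 0.54, 0.41, 0.40 and -0.42.

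**Figure D5:**
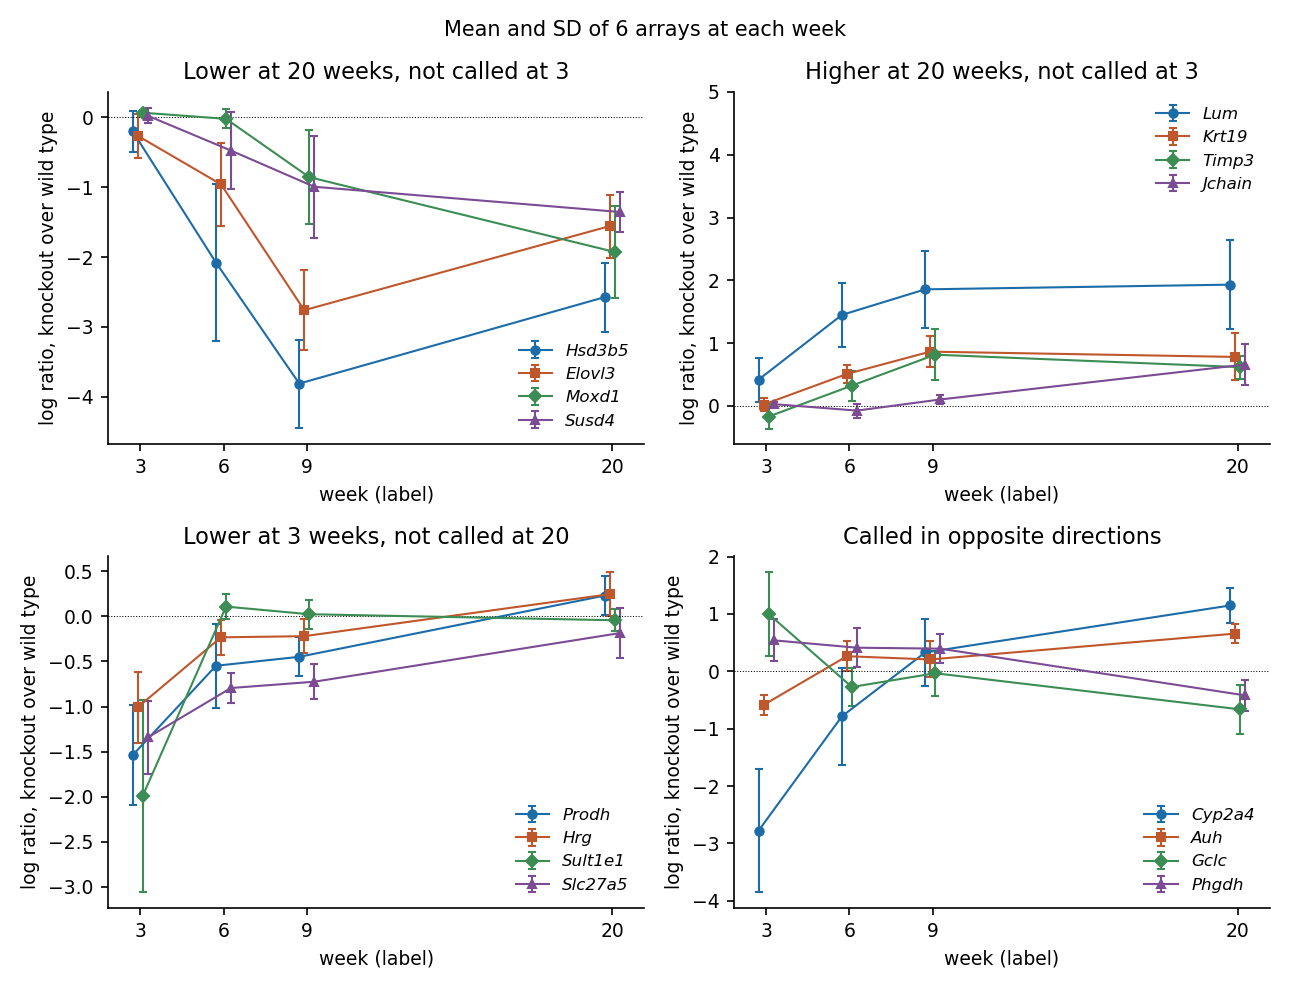
Mean log ratio of knockout over wild type with SD (6 arrays a week) at 3, 6, 9 and 20 weeks for 16 genes in 4 panels, grouped by the tests of the first and last week; points of a week are set slightly apart so that bars can be seen. Hsd3b5 and Elovl3 are lowest at 9 weeks, Jchain is raised at 20 weeks, Sult1e1 is low at 3 weeks, and the lines of the last panel cross 0.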

How the data were processed

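The values are log2 ratios of the dyes as deposited by the authors, 1 per feature and array for 22575 features; the log base is assumed to be 2, no value was missing, and no source used here gives the background correction, the normalization or any filter. Per the labels, liver total RNA was labelled by FairPlay kit for spotted cDNA arrays, so relatives within gene families may share probes. Where wild type RNA carried Cy5 the sign was turned, and each array was centred on its median. The direction of the deposited ratio, likely Cy5 over Cy3, is not stated.

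Value rows were joined to probes by reading a grid of 215 by 105 by column with both axes reversed. Copies of 48 repeated accessions then had a mean median correlation of 0.664, against 0.00533 in the direct join. Features of 1 symbol were averaged, leaving 16504 named genes and 4357 other features. With limma 3.58.1 in R 4.3.3, all 24 arrays were fitted with 1 mean per week and a common dye-orientation term, and the 20 minus 3 weeks contrast was tested over all 20861 items (Benjamini-Hochberg, threshold 0.05; checked on simulated data). Errors after ± are SE for differences and SD of 6 arrays for means. The precision is limited by the number of arrays.

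Named genes are Abcb4, the 14 largest differences in each direction among genes whose weeks do not overlap, the 4 or fewer lowest-p called members of each gene group, and the 10 largest differences with opposite directions; clone and predicted names were not named. The rule allows 105 genes, of which the text names 87, and 15 more after their values were seen. Of 22 allowed genes whose call ended without 1 array, 11 are not named. The comparison, the groups and this rule were chosen with earlier results of these data known. Alternatives changed the dye term, the arrays fitted, the centring, the spread, the weights and the averaging.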

Additional observations from a re-analysis of the deposited data

Results flagged for a closer look

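The test of the difference between the weeks was passed by 953 items. Among genes past the test in opposite directions at the 2 weeks, the largest differences (20 minus 3 weeks) were 3.92 for Cyp2a4, -1.66 for Gclc, 1.30 for Fmo1, 1.24 for Auh, -1.16 for Ces2a, 1.02 for Hgd, 0.97 for Slc47a1, -0.96 for Phgdh, 0.86 for Timm10 and -0.86 for Set.

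Of 220 sets of 6 arrays examined (1 gene or group median in 1 week), 15 had an array at one end whose gap to its neighbour, as a share of the range, passed Dixon's 95% limit, and chance sets apart about 1 in 20. At 20 weeks, array 1 stood apart for Gclc (-1.50), Hmgb2 (-0.70), Lyz2 (1.17) and Slc27a5 (0.34). Array 2 of 20 weeks stood apart for Cyp2c55 (0.30), Gstp1 (1.42), Trem2 (1.09) and the median of the urea cycle and amino acid group (-0.89). Array 4 of 20 weeks did so for Aldh1a1 (0.55), and array 5 of 20 weeks for the endothelial genes Mmrn2 (-0.22) and Robo4 (-0.12). At 3 weeks, array 6 stood apart for Cyp27a1 (-0.72), Tff2 (-2.03) and the median of the exocrine pancreas markers (-3.60), and array 5 for Slc37a4 (-2.65).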

How the results depend on the processing

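The alternatives refit the arrays on which the named genes were chosen, so a kept sign is not a separate check. Over 26 alternatives, none of the 101 called genes named here changed sign. Of them 21 lost the call when 1 array was left out, 34 with the closest opposite-dye pair of each week averaged (arrays 5 and 6 of 20 weeks, 1 and 3 of 3 weeks), 34 without arrays 1 and 2 of 20 weeks, 26 with only the 12 arrays of both weeks fitted, 62 and 101 with knockout or wild type RNA alone in Cy5, and 40 with the replicate block. Against 953 items (631 positive, 322 negative), 1475 (550 negative) were called with a common spread, 488 were negative with array weights, and 376 (275 and 101) were called with those pairs averaged. Arrays with knockout RNA in Cy5 gave 275 (209 and 66) and those with wild type RNA in Cy5 gave 2 (1 and 1), each with 3 arrays a week. Without arrays 1 and 2 of 20 weeks, chosen after the data had been seen, 301 (188 and 113) were called. Leaving out 1 array gave 503 to 1218 calls, 344 to 826 positive and 156 to 392 negative. At 20 weeks alone 2807 were called, 219 with wild type RNA in Cy5, 1191 without arrays 1 and 2 and 1821 (without array 2) to 2877 without 1 array; at 3 weeks alone 1542 were called, 2480 with a common spread, 701 with knockout and 498 with wild type RNA in Cy5. The cause of these shifts was not tested, beyond fewer arrays being fitted. Fitted with the replicate number as a block, 464 (324 and 140) were called. Same-numbered arrays of the weeks correlated at -0.32 to 0.30, and array 5 alone ranked its own number first. So few correlations cannot decide whether the numbers pair the arrays. Signal over background was not analysed here, so faint features are not set apart.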
